A study of Mus musculus with 5 samples.

Results

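The 10 genes described here encode heat shock proteins of the cytosol, nucleus and mitochondria and were chosen by name: Hspa1a, Hspa1b, Hspa8, Hsp90aa1, Hsp90ab1, Dnajb1, Dnaja1, Hsph1, Hspe1 and Hspd1. They are 10 of the 52550 genes in the count table, and all 10 passed the filter on low counts, which kept 11766 genes. Expression was measured by Quant-seq, a 3′ RNA sequencing method that reads the end of polyadenylated transcripts, in KL cells (Lin-cKit+Sca1-), the bone marrow fraction that contains committed myeloid progenitors. The 3 BcorΔE9-10 libraries came from mice of the genotype scl-Cre-ERT +; Bcorfl/y and the 2 BcorWT libraries from mice of the genotype scl-Cre-ERT +; Bcorwt/y. All 5 libraries therefore came from male mice that carried the Cre transgene, and both groups received tamoxifen, 1 mg per day by intraperitoneal injection for 5 days at 3 to 6 months of age, with marrow collected 20 weeks later. The transgene places a tamoxifen-activated Cre under stem cell regulatory sequences of Scl (Tal1), so that exons 9 and 10 of Bcor are removed in haematopoietic stem cells and inherited by their progeny, which leaves a truncated Bcor protein without its PUFD domain. The question asked of these genes is whether a stress response of the kind that cell handling can cause differed with genotype.

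Heat shock proteins are chaperones that hold, fold and refold other proteins. Unfolded protein releases the transcription factor Hsf1 from its chaperone partners, and Hsf1 then binds heat shock elements, which are inverted repeats of the bases GAA, and induces genes of the Hsp70, Hsp90 and J-domain families within minutes. In sorted cells the same genes, together with immediate-early genes such as Fos and Jun, are known to respond to dissociation, warming, washing and sorting, so their transcripts are often read as a record of how cells were treated. Before sequencing, the marrow cells of this study were exposed to red cell lysis buffer, depleted of lineage-positive cells on magnetic columns, stained with antibodies, sorted as viable DAPI-negative cells on 1 of 3 cell sorters and lysed in Trizol. The sorter and the sorting day of each library are not given in the sources used here.

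The upstream sequences of the heat shock genes are shown because a shared element is what ties most of these genes to Hsf1. The RefSeq promoter table (build GRCm38.p6) held 7 of the 10 genes, with no entry for Hspa8, Hsp90aa1 and Hsp90ab1. In the 250 bases upstream of each start, a pair of inverted units spelled GAANNTTC or TTCNNGAA, each of which reads the same on both strands, was found in 6 of the 7 genes, counting a match at any listed start, and by the same count in 14.55% of the 27025 genes of the table (12.84% of its 32851 promoters). A run of 3 alternating units was found in 2 of the 7, Hspe1 and Hspd1, and in 0.51% of all genes (0.47% of promoters). Neither motif was found upstream of Dnajb1, which says only that these letters are not in that window. Each window is printed 5′ to 3′ on the strand of its gene, and capitals mark the inverted units. The windows of Hspa1a (chr17:34972241-34972272, minus strand) and Hspa1b (chr17:34959323-34959354, minus strand) had the same letters, and 247 of the 250 upstream bases of these neighbouring genes were identical (98.8%). The element of Dnaja1 lay at chr4:40722332-40722363 on the plus strand and that of Hsph1 at chr5:149636350-149636381 on the minus strand. Hspe1 and Hspd1 are divergent neighbours, and the windows printed for them are the same stretch, chr1:55088047-55088088, read on the plus strand for Hspe1 and on the minus strand for Hspd1. A match is a description of the letters and not evidence of binding.
Hspa1a: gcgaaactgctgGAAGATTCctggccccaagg
Hspa1b: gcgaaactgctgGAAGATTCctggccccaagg
Dnaja1: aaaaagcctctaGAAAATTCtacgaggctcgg
Hsph1: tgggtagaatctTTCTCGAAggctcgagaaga
Hspe1: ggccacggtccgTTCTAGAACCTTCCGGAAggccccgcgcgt
Hspd1: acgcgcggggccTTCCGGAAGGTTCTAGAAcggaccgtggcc

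Total counts per library ranged from 5998924 to 8303999, and counts are given below as CPM, counts scaled to a TMM-adjusted library total of 1e+06. Kit, the marker of the sort, had 452, 307 and 423 counts in BcorΔE9-10 and 128 and 132 in BcorWT and was thus higher in BcorΔE9-10 (log2 fold change 1.43, limma adjusted p = 9.8e-05). The granule gene Mpo had 26303 to 46819 counts, while Ly6a, which encodes the Sca1 antigen absent from these cells by the sort, had 3 to 8 counts. Genes of mature neutrophils, whose surface markers the lineage depletion targets, were also abundant. Of 9 tested, 5 fell in BcorΔE9-10 and none rose at the limma threshold, 7 had a log2 fold change below 0, and at an unadjusted p under 0.05 limma gave 6 lower and 2 higher, Camp (0.25) and Itgam (0.37). Their summed level was 129050, 117630 and 111040 CPM in BcorΔE9-10 and 170270 and 162770 CPM in BcorWT. Of 8 basophil, mast cell and eosinophil genes all were below 0 and 6 passed the limma threshold, with summed levels of 402 to 573 CPM against 1020 to 1309 CPM. Of 5 erythroid genes tested, 4 had a log2 fold change above 0 and 1, Gata1, was below 0 (-1.09). Car1 alone passed the limma threshold (log2 fold change 2.46, limma adjusted p = 0.0443), and 4 were higher at an unadjusted p under 0.05. In limma 4 of this list passed without BcorΔE9-10 library 1, and 0 without library 2 or without library 3. Their summed levels overlapped, at 42.8 to 169 CPM in BcorΔE9-10 and 15.5 to 47.1 CPM in BcorWT. These are bulk libraries, in which fewer cells of a type and less RNA per cell cannot be told apart, and the part of these cells in the values below was not tested. Bcor itself had 196, 168 and 185 counts in BcorΔE9-10 and 83 and 109 in BcorWT, but a 3′ tag lies outside the deleted exons and does not check the deletion.

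Most of the heat shock transcripts were lower in BcorΔE9-10 KL cells than in BcorWT KL cells. In limma with Benjamini-Hochberg adjustment over all 11766 genes, 6 of the 10 heat shock genes fell at an adjusted p under 0.05 and none rose: Hspa1a, Hspa1b, Hsp90aa1, Dnajb1, Hsph1 and Hspd1. The quasi-likelihood test of edgeR and DESeq2 each called 5 as lower and none as higher, when they called 11.2% and 10.9% of all genes. edgeR left out Hspa1a, while DESeq2 left out Hspa1a and Hspa1b and added Hsp90ab1. At an unadjusted p under 0.05 limma gave 8 lower and none higher. How many of all genes were at that unadjusted level was not counted, so this and the like counts of other lists lack a background. Over all genes tested in limma, 10.1% passed the adjusted threshold, 4.09% as lower and 6.02% as higher in BcorΔE9-10. The log2 fold change of BcorΔE9-10 over BcorWT was below 0 for 9 of the 10, and its median was -0.53 against 0.0043 for all genes tested. For 7 of the 10 every BcorΔE9-10 library was below both BcorWT libraries, a pattern held by 20.3% of all genes. The CPM of the 10 genes summed to 3188, 3596 and 3702 in BcorΔE9-10 libraries 1, 2 and 3 and to 5459 and 4338 in BcorWT libraries 1 and 2, or 3495 ± 271 (SD, n = 3) against 4898 ± 793 (SD, n = 2).

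The number of genes called depended on BcorWT library 1. It had the highest level of the 5 libraries for 6 of the 10 genes, and without it 2 of the 10, Hspd1 and Hsph1, remained past the threshold, when 4.54% of all genes did. The median log2 fold change of the heat shock genes was then -0.36, and 9 of 10 were still below 0. At the other end, BcorΔE9-10 library 1 was the lowest of the 5 libraries for 7 of the 10 genes, and without it 4 of the 10 passed, when 8.05% of all genes did. Of all 11766 genes tested, 2913 were highest in BcorWT library 1 and 1672 were lowest in BcorΔE9-10 library 1.

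**Figure D1:**
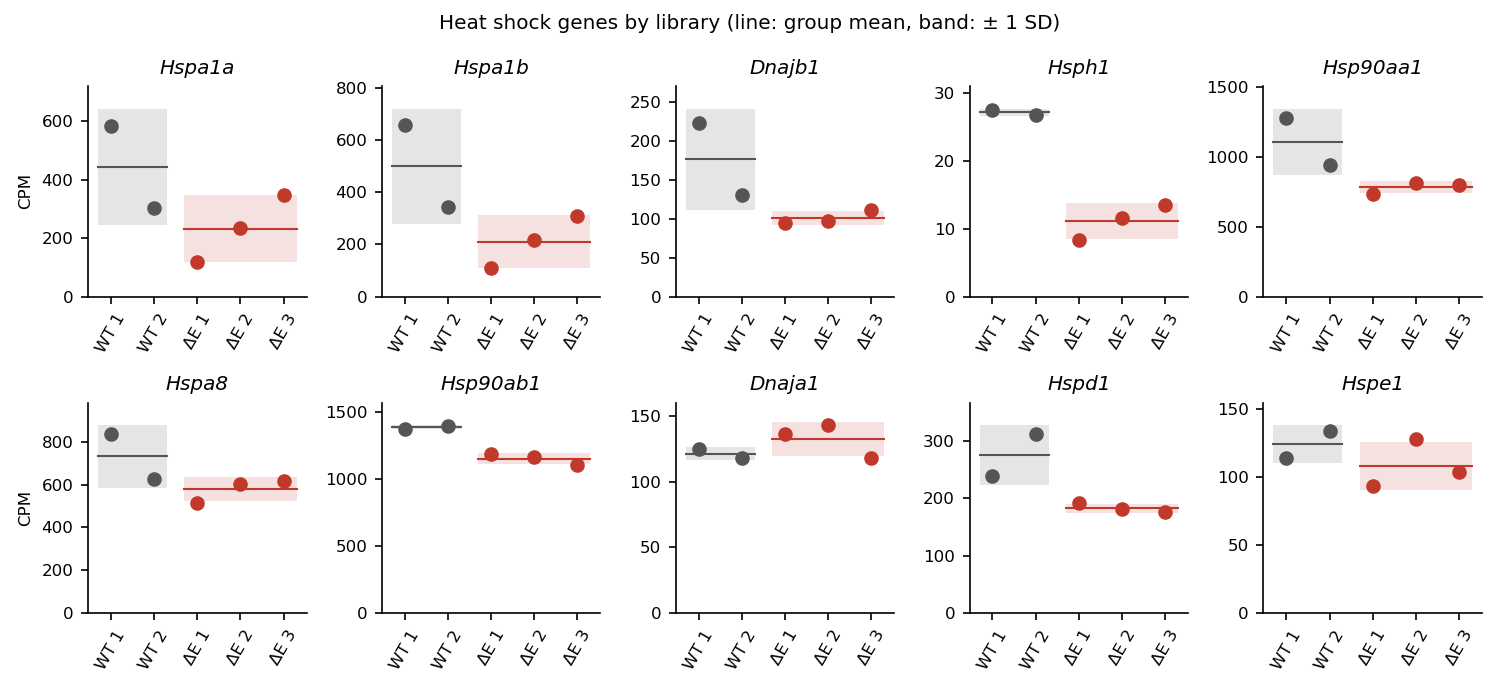
CPM of each heat shock gene (vertical axis, starting at 0) in the 2 BcorWT libraries (WT, grey) and the 3 BcorΔE9-10 libraries (ΔE, red), with the group mean as a line and 1 SD as a band. Hsph1 sits between 26.8 and 27.5 CPM in BcorWT and between 8.27 and 13.6 CPM in BcorΔE9-10, while Hspa1a of BcorΔE9-10 library 3 lies above BcorWT library 2.

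Hspa1a and Hspa1b encode the strictly inducible cytosolic Hsp70 and lie next to each other on chromosome 17 (Hspa1a, ENSMUSG00000091971.3, chr17:34969190-34972156; Hspa1b, ENSMUSG00000090877.3, chr17:34956436-34959238; mm10, minus strand). Hspa1b was measured at 108, 216 and 309 CPM in BcorΔE9-10 libraries 1, 2 and 3 and at 657 and 344 CPM in BcorWT libraries 1 and 2. Every BcorΔE9-10 library was therefore below both BcorWT libraries, although BcorΔE9-10 library 3 and BcorWT library 2 were close. The log2 fold change of Hspa1b was -1.31 with a standard error (SE) of 0.30 (limma adjusted p = 0.0109), and -0.84 without BcorWT library 1 (limma adjusted p = 0.0961). With DESeq2 it did not pass (adjusted p = 0.195). Hspa1a was measured at 118, 235 and 347 CPM in BcorΔE9-10 and at 585 and 302 CPM in BcorWT, so that the groups overlapped. Its log2 fold change was -0.99 (SE 0.31, limma adjusted p = 0.0498), at the edge of the threshold. It did not pass in the edgeR fit (quasi-likelihood test, adjusted p = 0.0672) or with DESeq2 (adjusted p = 0.397), and without BcorWT library 1 its log2 fold change was -0.52 (limma adjusted p = 0.367). Hspa1a also missed the threshold without BcorΔE9-10 library 1 or 2.

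For both inducible Hsp70 genes BcorΔE9-10 library 1 was the lowest of the 5 libraries and BcorWT library 1 the highest, while BcorΔE9-10 library 3 and BcorWT library 2 changed places between the genes. Their coding parts are nearly the same, and 64.06% of the 30-base words of the Hspa1a transcript also occurred in Hspa1b. No such word lay in the last 300 bases of either gene, where the method reads transcripts, and the nearest was 786 bases from the end of Hspa1a and 619 bases from the end of Hspa1b. Summed as 1 gene, their log2 fold change was -1.15 (limma adjusted p = 0.0218). Hspa1a held 52.1%, 52.1% and 52.9% of the joint counts in BcorΔE9-10 and 47.1% and 46.8% in BcorWT. The share thus differed little within a group while the joint level differed by up to 2.90 times between the BcorΔE9-10 libraries (226, 451 and 656 CPM) and by 1.92 times between the BcorWT libraries (1242 and 647 CPM).

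Hspa8 encodes Hsc70, the Hsp70 that most cells make without stress, and it is located at chr9:40800984-40810087 on the plus strand. It was measured at 513, 605 and 618 CPM in BcorΔE9-10 and at 836 and 629 CPM in BcorWT. BcorΔE9-10 library 3 and BcorWT library 2 were nearly level, although the groups did not overlap. Its log2 fold change was -0.33 (95% interval -0.59 to -0.08) and did not pass the threshold (limma adjusted p = 0.0937). Without BcorWT library 2 it passed, at -0.53 (limma adjusted p = 0.00721), and without BcorWT library 1 it was -0.13.

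Hsph1 encodes Hsp110, which removes ADP from Hsp70 and helps it to take apart aggregates. The gene (chr5:149614287-149636376, minus strand) had 70, 71 and 116 counts in BcorΔE9-10 and 194 and 181 in BcorWT, or 8.27, 11.6 and 13.6 CPM against 27.5 and 26.8 CPM. All BcorΔE9-10 libraries were below both BcorWT libraries, and the BcorWT libraries hardly differed. Its log2 fold change was -1.32 (SE 0.22, limma adjusted p = 0.00126). Hsph1 was past the threshold in all 16 alternative fits, the only heat shock gene of the 10 with that record, and its log2 fold change ranged from -1.51 to -1.10 when each library was left out in turn.

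J-domain proteins bring unfolded clients to Hsp70 and start its ATPase cycle. Dnajb1, the stress-inducible Hsp40 (chr8:83608193-83612653, plus strand), was measured at 94.2, 96.8 and 111 CPM in BcorΔE9-10 and at 222 and 130 CPM in BcorWT. The BcorΔE9-10 libraries lay close together and below both BcorWT libraries, of which library 1 stood well above library 2. For Dnajb1 the log2 fold change was -0.76 (SE 0.17, limma adjusted p = 0.0107), and -0.38 without BcorWT library 1 (limma adjusted p = 0.161). Dnaja1, a J-domain protein made under ordinary conditions (chr4:40722150-40737149, plus strand), was measured at 136, 143 and 118.3 CPM in BcorΔE9-10 and at 125 and 118.1 CPM in BcorWT. The groups overlapped and the log2 fold change of Dnaja1 was 0.12 (95% interval -0.14 to 0.38, limma adjusted p = 0.590). Its sign turned, to -0.06, when the trend on GC content was removed from each library. The last exon of Dnaja1 overlaps 608 bases of Smu1 on the opposite strand, and the counting is not stated to use strand, so that reads of the pair may not be separated.

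Hsp90 holds kinases and steroid receptors in a ready state. Hsp90aa1, the stress-responsive cytosolic form (chr12:110690605-110702728, minus strand), was measured at 739, 814 and 802 CPM in BcorΔE9-10 and at 1279 and 944 CPM in BcorWT. The BcorΔE9-10 libraries formed a tight group below both BcorWT libraries. The log2 fold change of Hsp90aa1 was -0.49 (SE 0.11, limma adjusted p = 0.0125), and -0.27 without BcorWT library 1 (limma adjusted p = 0.198). Without BcorΔE9-10 library 1 it was -0.44 (limma adjusted p = 0.0572). Hsp90ab1, the form that cells make in quantity without stress (chr17:45567775-45573271, minus strand), was measured at 1188, 1167 and 1104 CPM in BcorΔE9-10 and at 1375 and 1398 CPM in BcorWT. The groups were separate and each was tight, but the difference was small, with a log2 fold change of -0.27 (95% interval -0.45 to -0.09) that did not pass the threshold (limma adjusted p = 0.0570). Hsp90ab1 did pass with DESeq2 (adjusted p = 0.0382), with DESeq2 size factors in limma (adjusted p = 0.0439) and with no filter in limma (adjusted p = 0.0266).

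Hspd1 and Hspe1 encode Hsp60 and Hsp10, the barrel and the lid of the mitochondrial chaperonin, and are transcribed away from each other on chromosome 1. Hspd1 (chr1:55077835-55088243, minus strand) was measured at 191, 181 and 176 CPM in BcorΔE9-10 and at 239 and 312 CPM in BcorWT. Here BcorWT library 2 and not library 1 was the highest, and the BcorΔE9-10 libraries lay below both. The log2 fold change of Hspd1 was -0.58 (SE 0.12, limma adjusted p = 0.00686), -0.78 without BcorWT library 1 and -0.38 without BcorWT library 2, where it missed the threshold (limma adjusted p = 0.0731). Hspe1 (chr1:55088132-55091307, plus strand) was measured at 93.1, 127 and 103 CPM in BcorΔE9-10 and at 114 and 134 CPM in BcorWT. The groups overlapped, and for Hspe1 the log2 fold change was -0.22 (95% interval -0.51 to 0.08, limma adjusted p = 0.355). Of the 30-base words at the end of the Hspe1 transcript, 63.1% also occurred in 5 other genes, so that its reads may be split among copies, whereas the end of Hspd1 held no such word.

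**Figure D2:**
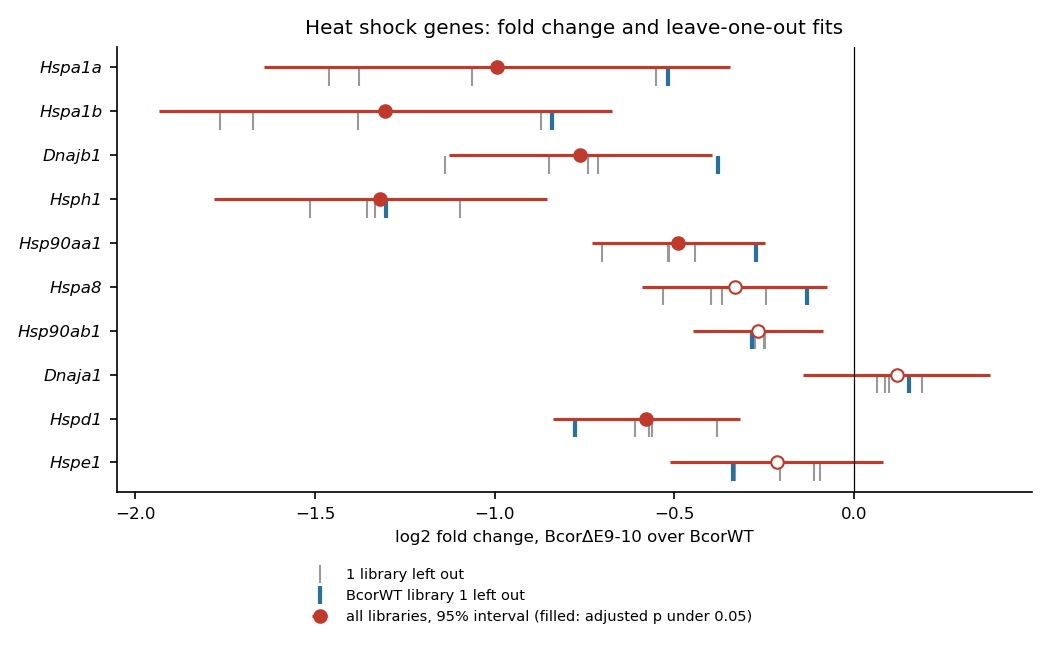
Log2 fold change of BcorΔE9-10 over BcorWT for each heat shock gene (horizontal axis) with its 95% interval from limma, filled where the adjusted p is under 0.05, and below each point the fits that leave out 1 library (ticks, blue for BcorWT library 1). The blue ticks of Hspa1a (-0.52), Hspa1b (-0.84), Dnajb1 (-0.38) and Hsp90aa1 (-0.27) lie nearest to 0, while those of Hsph1 and Hspd1 do not.

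Hspa8 and Hsp90aa1 have near copies in the genome that held counts of their own. All 30-base words in the last 300 bases of Gm8355 and Gm15459 occur in the Hspa8 transcript, and these gene models held 2627, 2395 and 3176 and 2999, 2662 and 3555 counts in BcorΔE9-10, where Hspa8 held 4340, 3706 and 5287. Summed over all copies, they came to 119% to 136% of the counts of Hspa8 in the 5 libraries. Neither copy passed the threshold, at a log2 fold change of -0.24 in the case of Gm8355 (adjusted p = 0.284 in limma) and -0.22 in that of Gm15459 (adjusted p = 0.320). With the copies added to Hspa8 its log2 fold change was -0.27 (limma adjusted p = 0.162). Copies with fewer counts exist for Dnaja1 and Hspd1. Those of Dnaja1 held 169, 113 and 66 counts in BcorΔE9-10 and 56 and 48 in BcorWT. With them added, the log2 fold change of Dnaja1 was 0.19 (limma adjusted p = 0.392). The copies of Hspd1 held 2 to 20 counts per library, and with them added it was at -0.57.

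The copies of Hsp90aa1 held 92.6% to 104% of the counts of Hsp90aa1, and all 3 were lower in BcorΔE9-10. Gm12346 had 3235, 2482 and 3557 counts in BcorΔE9-10 and 4991 and 3625 in BcorWT (log2 fold change -0.62, limma adjusted p = 0.00262). For Gm5844 the log2 fold change was -0.61 (adjusted p = 0.00489 in limma), and for Gm5511, which had 39 to 148 counts, it was -0.99 (adjusted p = 0.0332). Without BcorWT library 1 Gm12346 still passed (log2 fold change -0.43, limma adjusted p = 0.0440) and the other copies did not. With the copies added to Hsp90aa1 its log2 fold change was -0.56 (limma adjusted p = 0.00381). The nearest word of Hsp90aa1 shared with Gm12346 or Gm5844 lay 935 bases from the end of its longest transcript, and 2.21% of the words in its last 300 bases occurred in any other gene. How reads that align to several places were counted is not stated, and whether a gene and its copies shared reads was not tested.

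**Figure D3:**
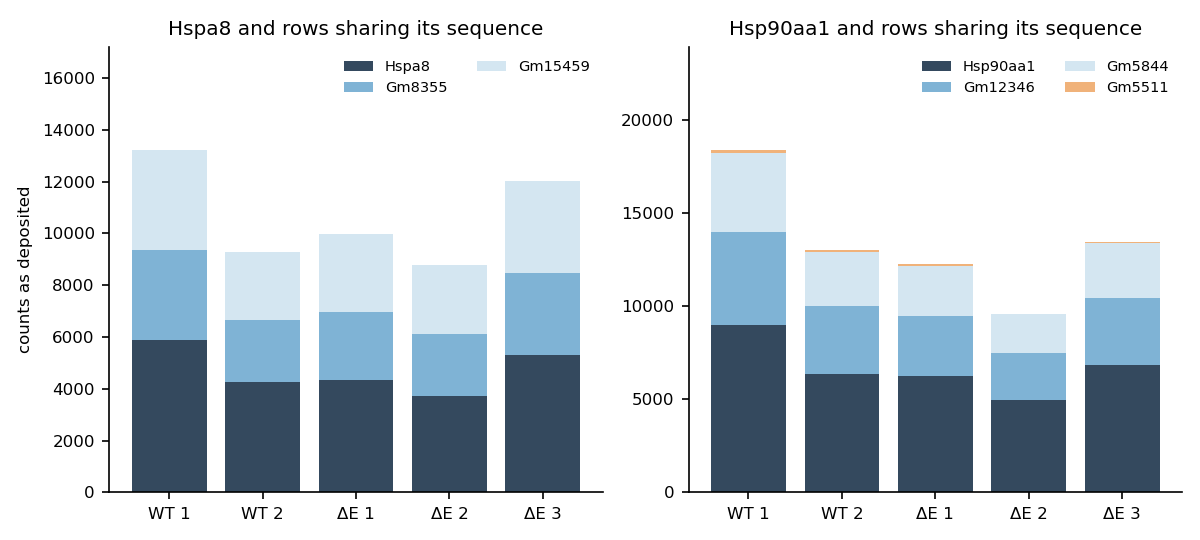
Counts as deposited (vertical axis, stacked) of Hspa8 and Hsp90aa1 and of the gene models that share their transcript sequence, in the 2 BcorWT (WT) and 3 BcorΔE9-10 (ΔE) libraries. The copies make up about as many counts as the gene itself in every library, 119% to 136% for Hspa8 and 92.6% to 104% for Hsp90aa1.

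The factors that drive these genes did not pass the threshold. Hsf1 had 44, 26 and 46 counts in BcorΔE9-10 and 13 and 18 in BcorWT, so that every BcorΔE9-10 library was above both controls, at a log2 fold change of 1.15 (95% interval 0.20 to 2.09, limma adjusted p = 0.119). For Hsf2 the log2 fold change was -0.45 (adjusted p = 0.376 in limma). Of 5 factors and regulators listed 3 were tested, and none passed with limma, edgeR or DESeq2, with 1 higher and none lower at an unadjusted limma p under 0.05.

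Among 19 further genes known to be induced by heat, 16 were tested, 5 fell and none rose in limma. The median log2 fold change of this list was -0.28, but it ranged over the alternatives from -0.45 with no filter to -0.095 with at least 10 counts in every library, and 2 to 5 genes fell when each library was left out in turn. With total counts alone 4 fell and 1 rose. edgeR called the same 5 and DESeq2 4 of them, and at an unadjusted p under 0.05 limma gave 6 lower and 1 higher. Hspb1, which encodes the small heat shock protein Hsp25, had 2, 3 and 7 counts in BcorΔE9-10 and 73 and 17 in BcorWT. The groups were separate but the levels were low and the BcorWT libraries far apart, and the fitted log2 fold change was -3.33 (SE 0.89, limma adjusted p = 0.0250), with -2.31 when BcorWT library 1 was left out. The region upstream of Hspb1 holds a pair of elements like that of Hspa1a, which are shown from chr5:135887790-135887841 on the plus strand with the inverted units in capitals.
Hspb1: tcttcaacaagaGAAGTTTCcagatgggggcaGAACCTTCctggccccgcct

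Hspa1l, an Hsp70 gene beside Hspa1a that is best known from testis, had 14, 11 and 44 counts in BcorΔE9-10 and 88 and 41 in BcorWT. In CPM the groups did not overlap, at 1.65, 1.80 and 5.14 against 12.5 and 6.08, and the log2 fold change was -1.74 (SE 0.47, limma adjusted p = 0.0258). Stip1, the adaptor that passes clients from Hsp70 to Hsp90, was measured at 55.9, 50.9 and 52.1 CPM in BcorΔE9-10 and at 79.7 and 87.4 CPM in BcorWT. Ahsa1, the activator of the Hsp90 ATPase, was measured at 178, 150 and 164 CPM in BcorΔE9-10 and at 236 and 258 CPM in BcorWT. Both fell. For Stip1 the log2 fold change was -0.65 (SE 0.13, limma adjusted p = 0.00460) and for Ahsa1 it was -0.59 (SE 0.11, limma adjusted p = 0.00356). Unlike 7 of the 10 heat shock genes, Stip1 and Ahsa1 were higher in BcorWT library 2 than in library 1, and these 2 genes were the ones of this list that still passed without BcorWT library 1. When each library was left out in turn, Stip1 and Ahsa1 passed in all 5 fits, Hspa1l in 2 and Hspb1 in 1, the fit without BcorWT library 2.

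In the wider chaperone lists the number of calls was small and is to be read against the 10.1% of all genes that passed. Of 18 Hsp90 cochaperones 2 fell, Ahsa1 and Nudc (log2 fold change -0.47), and 1 rose, Cdc37l1 (log2 fold change 0.73). Of 10 Hsp70 exchange factors and adaptors 1 fell, Stip1, and none rose in limma, while edgeR and DESeq2 each also called Bag2 as higher (log2 fold change 1.37 and adjusted p = 0.0583 in limma). Of 14 other J-domain proteins tested, Dnajc21 (log2 fold change 1.69) and Dnajc13 (0.73) rose and Dnajc5 (-0.48) fell. None of 14 tested subunits of TRiC, the cytosolic chaperonin, and of prefoldin passed with limma, edgeR or DESeq2, and 2 were lower at an unadjusted limma p under 0.05. Of 6 other Hsp70 and Hsp110 family members 1 fell, Hspa1l. When each library was left out in turn, Cdc37l1 and Dnajc13 passed in 1 of 5 fits, Nudc in 2 and Dnajc21 and Dnajc5 in 4. Without BcorWT library 1 none of the J-domain list passed in limma (2 higher and 2 lower at an unadjusted p under 0.05), and of the cochaperones Ahsa1 alone did.

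Chaperones of other compartments did not share 1 direction. Hspd1 fell, but of 13 other mitochondrial chaperones and proteases none fell with limma, edgeR or DESeq2, none was lower at an unadjusted p under 0.05, and 1 rose. It was Dnajc19, an inner membrane J-domain protein with 27.7, 29.7 and 28.9 CPM in BcorΔE9-10 and 16.3 and 16.7 CPM in BcorWT (log2 fold change 0.79, SE 0.19, limma adjusted p = 0.0129). Dnajc19 missed the threshold without BcorWT library 1 (log2 fold change 0.77). The median log2 fold change of these 13 genes was 0.39, and 0.18 without BcorWT library 1, when none passed in limma and 4 were higher at an unadjusted p under 0.05. With all libraries 10 were above 0, and 4 were higher at an unadjusted p under 0.05. Of 17 chaperones of the endoplasmic reticulum 3 fell, Hspa5 (log2 fold change -0.47), Hyou1 (-0.48) and Creld2 (-0.87), and 1 rose, Dnajb9 (0.63). When each library was left out in turn, Hspa5 passed in 4 of 5 fits, Hyou1 in 2 and Creld2 and Dnajb9 in 1 each, and Creld2 did not pass with DESeq2. Without BcorWT library 1 the list had 4 lower calls and 1 higher, as Hspa5 was lost and Calr and Pdia6 were gained as lower. Hspa5, known as BiP, was measured at 869, 778 and 830 CPM in BcorΔE9-10 and at 1213 and 1072 CPM in BcorWT (limma adjusted p = 0.00476), and it missed the threshold without BcorWT library 1 (limma adjusted p = 0.0572).

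**Figure D4:**
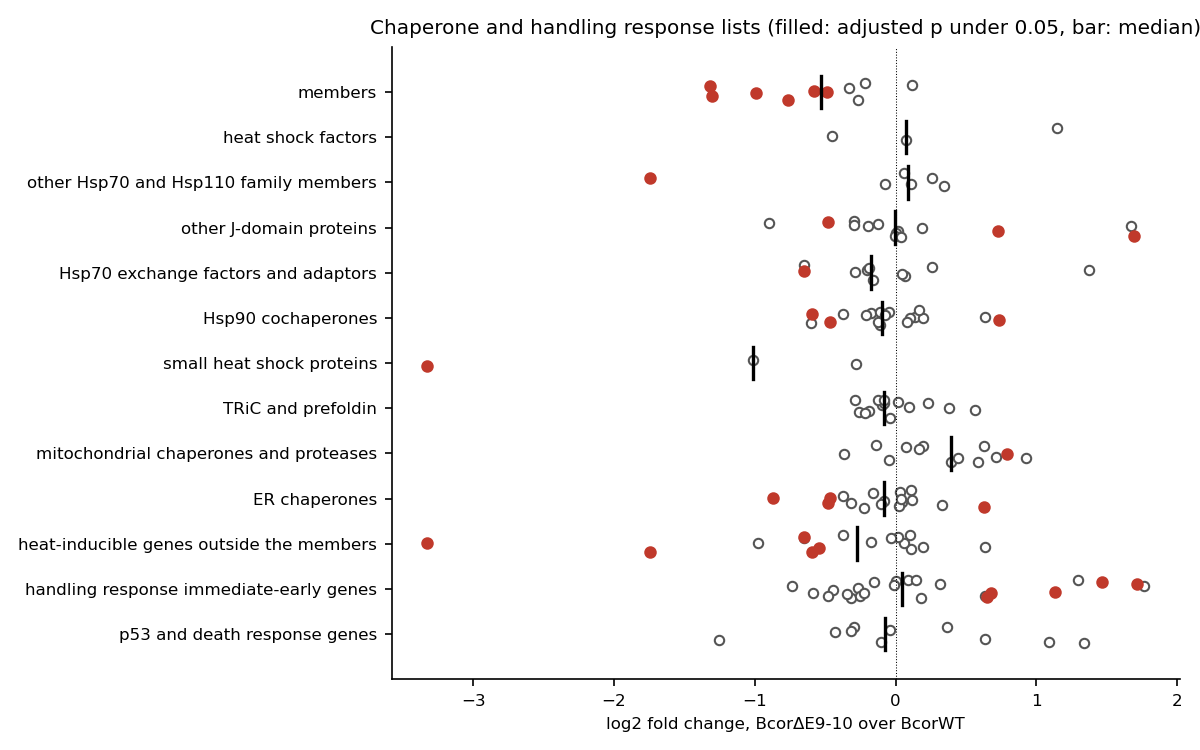
Log2 fold change of BcorΔE9-10 over BcorWT (horizontal axis) for each tested gene of each list (1 circle a gene, filled where the limma adjusted p is under 0.05, with a bar at the list median and vertical jitter for display). The heat shock genes, labelled members, have 6 filled circles and all of them lie left of 0, while the 5 filled circles of the immediate-early list lie right of 0.

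The immediate-early genes, which respond to handling along with heat shock genes, did not fall with them in the limma fit. Of 29 listed genes with counts deposited, 24 were tested. Of these, 5 rose in BcorΔE9-10 (Fos, Nr4a1, Fosb, Klf6 and Zfp36) and none fell. At an unadjusted p under 0.05 limma gave 8 higher and 5 lower, while edgeR called 6 higher and 2 lower and DESeq2 4 higher and 2 lower. Fos was measured at 334, 333 and 209 CPM in BcorΔE9-10 and at 107.5 and 69.6 CPM in BcorWT. Every BcorΔE9-10 library was above both BcorWT libraries, and the log2 fold change of Fos was 1.71 (SE 0.20, limma adjusted p = 9.8e-05). Its partner Jun was measured at 591, 412 and 335 CPM in BcorΔE9-10 and at 500.4 and 293 CPM in BcorWT, with overlapping groups and a log2 fold change of 0.18 (95% interval -0.26 to 0.62, limma adjusted p = 0.630). Egr1 overlapped in the same way (log2 fold change 0.15, limma adjusted p = 0.786), as did Dusp1 (0.64, limma adjusted p = 0.146), and Atf3 had 0 to 7 counts and was not tested.

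The BcorWT libraries differed from each other across this list. Of the 24 immediate-early genes 22 were higher in BcorWT library 1 than in BcorWT library 2, with a median log2 ratio of 0.64, compared with 7 of the 10 heat shock genes (median 0.24) and 47.7% of all genes tested. The direction of the calls in this list changed with the BcorWT library that was left out. Without BcorWT library 1, 7 of the 24 rose and none fell, whereas without BcorWT library 2, Fos and Nr4a1 rose and 7 others fell. Without BcorΔE9-10 library 1, Fos alone rose. Of these genes Fos passed the threshold in every alternative fit, with a log2 fold change from 1.41 to 2.02 when each library was left out in turn. None of the 10 heat shock genes rose in any alternative fit.

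**Figure D5:**
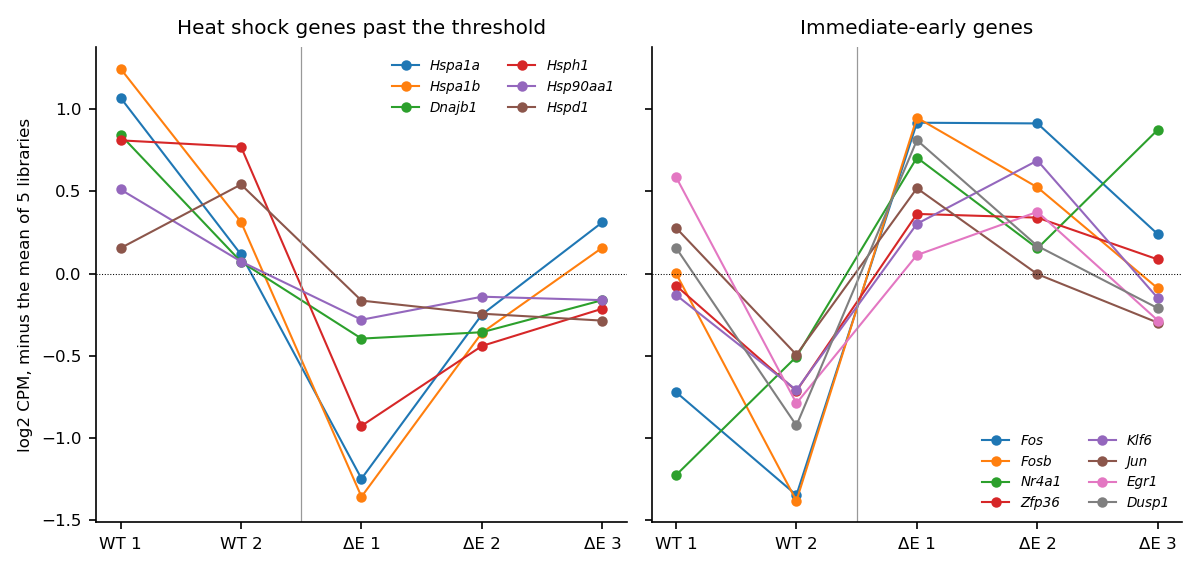
Log2 CPM minus the mean over the 5 libraries (vertical axis) for the 6 heat shock genes past the threshold (left) and for 8 immediate-early genes (right), by library (WT, BcorWT, and ΔE, BcorΔE9-10), with lines joining the values of 1 gene only to guide the eye. BcorWT library 1 is high for the heat shock genes except Hspd1, and Fos is higher in all 3 BcorΔE9-10 libraries (209 to 334 CPM) than in both BcorWT libraries (69.6 and 107.5 CPM).

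The 3 BcorΔE9-10 libraries were also not in the same order for the heat shock genes and for Fos. BcorΔE9-10 library 1 had the lowest summed heat shock level (3188 CPM) and BcorΔE9-10 library 3 the highest (3702 CPM), while Fos was higher in library 1 (334 CPM) than in library 3 (209 CPM). Of the 24 immediate-early genes, 12 were highest of all libraries in BcorWT library 1, in which 6 of the 10 heat shock genes were also highest. Another 7 were highest in BcorΔE9-10 library 1, in which 7 of the 10 heat shock genes were lowest. Of all 11766 genes tested, 2913 were highest in BcorWT library 1 and 1759 in BcorΔE9-10 library 1. Genes of the p53 and death response, a further sign of damaged cells, did not pass the limma threshold in any of the 10 tested, with 2 higher and 2 lower at an unadjusted p under 0.05, while edgeR called 1 higher and 1 lower and DESeq2 1 lower. Sesn2, which had the lowest p of that list, was at a log2 fold change of -1.25 (adjusted p = 0.0625 in limma).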

How the data were processed

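Counts of 3 BcorΔE9-10 and 2 BcorWT Quant-seq libraries of KL cells were analysed. Per the labels and methods, the authors sequenced 75 bp single-end reads, demultiplexed them with bcl2fastq (2.17.1.14), trimmed them with cutadapt (1.7 in the submitters' processing notes), used HISAT2 for alignment to mm10 and featureCounts of Subread for counting (1.5.0-p3). What was deposited is a table of raw, unscaled counts. Options for strand and for reads with several alignments are not given in the sources used here. Symbols were given to 52403 of 52550 rows through gene identifiers, and the coordinates of all 10 heat shock genes were identical in GENCODE M21. Deposited exon positions were used for overlaps.

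Genes were kept with filterByExpr (minimum count 10, minimum total 15), scaled by TMM (edgeR 4.0.16) and tested, BcorΔE9-10 against BcorWT, with limma 3.58.1 on voom values in R 4.3.3, two-sided, with Benjamini-Hochberg adjustment and a threshold of 0.05, since the study's methods name limma. No test was made over a list. The scripts were tested on simulated data. Alternatives were the quasi-likelihood test of edgeR, DESeq2 (1.42.0), other scalings and filters, GC correction, merged rows, fits with a replicate block, and fits without each library. Copies were gene models with over 50% of the 30-base words of their last 300 bases in a heat shock transcript.

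The 10 genes, the lists and the rules were chosen with earlier results of these data known. Named genes were the 10, Hsf1, Hsf2, up to 6 called genes of each list by size of change or, with none called, the gene with the lowest p, and Fos, Jun, Egr1, Atf3 and Dusp1. The values of 1 gene under this rule are not reported here. Bag2, Calr, Pdia6 and the cell type markers named singly were chosen after their values were seen. Nothing in the labels says that libraries of a group came from separate mice, so p-values measure the spread between these libraries. Chi-square per gene between libraries of a group was 6.01 to 11.6, above sampling noise. With total counts of 5998924 to 8303999, 9 of the 10 genes had 593 or more counts in every library, and Hsph1 had 70 to 194. Reads were not counted by molecular identifier.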

Additional observations from a re-analysis of the deposited data

How the results depend on the processing

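The median log2 fold change of the heat shock genes was below 0 in every alternative. It was -0.39 with total counts alone, a scaling that moved the median of all genes to 0.149 and the calls to 1210 higher and 197 lower, against 708 higher and 481 lower with TMM. When each library was left out in turn, the median ranged from -0.62 to -0.36, the number of heat shock genes called from 2 to 6 and the number of all genes called from 558 to 1200. The lowest of these numbers came without BcorWT library 1, and 774 genes passed without BcorΔE9-10 library 2 and 723 without library 3. With 1 BcorWT library left, it was assumed to vary like the other group. Of 152 comparisons of single heat shock genes with an alternative, 132 kept the direction and the side of the threshold, 13 lost the call, 6 gained it and 1 changed sign, Dnaja1 (-0.061 with the GC trend removed). Jun was -0.049 without BcorΔE9-10 library 1, and when each library was left out in turn it lay between -0.20 (BcorWT library 2 left out) and 0.56 (BcorWT library 1 left out). Egr1 was -0.10 with the GC trend removed, -0.0082 with the replicate block and the GC trend removed, and between -0.53 and 0.83 over the same fits. The cause was not tested.

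Libraries with the same replicate number shared only a number (correlations of their deviations 0.070 and 0.076). With the replicate block 1454 genes and 7 of the 10 heat shock genes passed, with a median of -0.53. BcorΔE9-10 library 3 has no partner there and does not enter the estimate. The block leaves very little by which to measure the spread between libraries of each gene. The p-values of these fits therefore rest mostly on a spread pooled over genes, and calls in them weigh less. The alternative fits that Hsph1 and Fos are said to pass include them. With the block and the GC correction together, 1237 genes and 6 heat shock genes passed.

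Depth limits the statements on Hsf1, Hsf2, Hspb1, Hspa1l, Dnajc21, Nr4a1, Sesn2 and Atf3, which had under 100 counts in each library, and on Hsph1 with 70 and 71 counts in BcorΔE9-10 libraries 1 and 2.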

Other observations

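Within chaperone pairs the balance of counts varied between libraries of a group. Hsp90aa1 was counted 0.622, 0.698 and 0.727 times as often as Hsp90ab1 in BcorΔE9-10 libraries 1, 2 and 3, and 0.930 and 0.676 times as often in BcorWT libraries 1 and 2, so that the groups overlapped. Hspd1 was counted 1.42 to 2.05 times as often as Hspe1 in the BcorΔE9-10 libraries and 2.09 and 2.33 times as often in BcorWT. These ratios were not tested. Of 10 small heat shock protein genes listed, 5 had no count in any library.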
